A study of Mus musculus with 10 samples.

Results

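The genes described here are the mouse Wnt ligands, the receptors that bind them, the secreted and intracellular antagonists of the pathway, and its transcription factors. They were taken by symbol from a table of 15078 genes, and 51 of these genes belonged to the set. There were 10 Wnt ligands, 4 R-spondins, 9 Frizzled receptors, 4 co-receptors (Lrp5, Lrp6, Ror1 and Ror2), 3 R-spondin receptors of the Lgr family, 10 secreted antagonists, the Dkk receptor Kremen1, 6 intracellular or membrane inhibitors, and 4 genes of the transcriptional complex. Another 14 symbols of the same families, Wnt3a, Sost and Lef1 among them, did not appear in that table and so were not analysed here.

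RNA was sequenced from CD51+CD200+ cells that lacked CD45, Ter119 and CD31, in 3 groups of mouse libraries. The graft BM-MSC group (n = 4) was sorted as mesenchymal stem cells out of the marrow of femurs collected 5 months after they were transplanted under the skin of wild-type hosts. The femurs came from Postn Cre-ER;tdTomato mice (genotype POSTN-CRE in the labels), which carry a tamoxifen-inducible Cre under the Postn (periostin) promoter and a Tomato reporter. Tamoxifen was given to the hosts soon after transplantation, so Tomato marks cells that used Postn in the graft at that time and their descendants, and only Tomato+ cells were sorted. The BM-MSC group (n = 3) came from the marrow, and the P-SSC group (n = 3, periosteal skeletal stem cells) from the periosteum, of wild-type mice that the labels call hosts at steady state, with the treatment given as none, and whether these mice carried a graft is not given in the sources used here. BM-MSCs and P-SSCs were thus sorted without Tomato, and the graft group differs from them in genotype, tamoxifen, transplantation and gate together. RNA of 2 mice was combined in BM-MSC 2+4 and in P-SSC 2+5, and by the study's methods each replicate held RNA of distinct mice. The labels give no ages. Grafts were collected 5 months after transplantation, so the graft cells may also differ from the other groups in age. The labels do not say whether BM-MSC and P-SSC libraries with the same number came from the same mice. The study reads Tomato in these cells as a sign of periosteal origin, and it also states that osteoblasts, fibroblasts and other cells express Postn. The comparison of the groups asks how far Tomato+ marrow stroma of a graft resembles marrow stroma and periosteum of bones that were not transplanted.

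Wnt proteins are secreted lipid-modified ligands that bind Frizzled receptors. With the co-receptors Lrp5 and Lrp6 they keep beta-catenin (Ctnnb1) from being degraded, and beta-catenin then acts with Tcf and Lef factors on target genes. R-spondins strengthen the signal by binding Lgr receptors and removing the ubiquitin ligases Znrf3 and Rnf43 from the membrane. Secreted frizzled-related proteins and Wif1 bind the ligands, whereas Dkk1 and Dkk2 bind the co-receptors. In bone the pathway is best known for promoting osteoblast formation.

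Library totals ranged from 15415421 to 25223295 reads, and a floor of 3 reads equalled 0.119 to 0.195 CPM (reads scaled to the library total). Values are normalised read counts, in which 1 read was worth 0.565 to 1.27. Values are given in the order graft BM-MSC 1, 2, 3 and 4, then BM-MSC 1, 2+4 and 3, then P-SSC 1, 2+5 and 4. The graft libraries listed more genes at 0 (22.6% to 38.3%) than the other 6 (11.5% to 19.0%), so a value of 0 in a graft library is stated as listed at 0. For a GC trend, each gene's log2(value + 1) was set against its own mean over the 10 libraries. The median of this deviation was compared between 51 GC-rich genes (over 65% GC) and 6033 genes with 50% to 60% GC. No member was among the GC-rich genes, and the highest was Fzd9 at 62.2%. In the graft libraries the median was higher for GC-rich genes by 1.69 to 2.80, and in P-SSC 4 by 1.52. It was lower for them by 1.51 to 1.81 in the 3 BM-MSC libraries, P-SSC 1 and P-SSC 2+5. This property (GC class, high or low) and the group cannot be told apart between graft BM-MSCs and BM-MSCs, and a fit with GC class as a covariate rests on the P-SSC libraries, the only group with both classes.

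All 6 marrow stroma markers (Cxcl12, Kitl, Lepr, Adipoq, Foxc1 and Ebf3) were detected in every library, with a summed value of 667900 to 819820 in graft BM-MSCs, 830910 to 1131700 in BM-MSCs and 4580 to 8883 in P-SSCs. The 6 markers of periosteum and fibroblasts summed to 235020 to 444700 in P-SSCs and to at most 14449 elsewhere. Markers of other cells also moved with the groups. The 4 tendon markers summed to 13916 to 42803 in P-SSCs and to at most 347 in the marrow groups. Of 6 endothelial markers 4 were in the table, and they summed to 3275 to 6871 in P-SSCs and at most 148 elsewhere. In each P-SSC library 1 or 2 of these 4 were at 0. The 4 pericyte and smooth muscle markers summed to 9955 to 27686 in P-SSCs and at most 7859 elsewhere. The 6 chondrocyte markers summed to 33827 to 73989 in BM-MSCs and at most 3884 elsewhere, with 4 or 5 of them at 0 in each graft library. The 6 osteoblast and osteocyte markers summed to 206740 to 257420 in BM-MSCs, 50232 to 69322 in graft BM-MSCs and 5824 to 26823 in P-SSCs. The 6 neutrophil markers summed to 23883 to 60452 in BM-MSCs, 4562 to 88629 in graft BM-MSCs and at most 102 in P-SSCs. The 6 red cell markers summed to 58705 to 205920 in BM-MSCs, 1483 to 27755 in graft BM-MSCs and 202 to 1407 in P-SSCs, the 6 macrophage markers to 4350 to 16573, 1374 to 13205 and 455 to 2511, and the 4 B cell markers to at most 306, 166 and 8.92. Their part in the results below was not tested, and in sorted bulk samples fewer cells of a type and less RNA per cell cannot be told apart.

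Wnt2, Wnt10b, Wnt1, Wnt9a and the antagonist Dkk2 were higher in P-SSCs, and at or near 0 in both marrow groups. Wnt4, Rspo2, Rspo3, Lgr5, Fzd5 and the inhibitor Nkd2 had the opposite pattern and were higher in both marrow groups than in P-SSCs. Of 49 members with a mean of at least 10, 10 (20.4%) were higher in graft BM-MSCs than in P-SSCs and 6 (12.2%) were lower, by limma on log2(value + 1) at a Benjamini-Hochberg adjusted p under 0.05 over 13644 genes, which is what called means where no other tool is named. The background was 6.08% of all genes higher and 12.0% lower. Between P-SSCs and BM-MSCs 6 members were higher in P-SSCs and 6 were lower (12.2% each), where the background was 4.57% and 4.58%. Between graft BM-MSCs and BM-MSCs 2 members were higher (4.08%) and 0 were lower, where the background was 2.61% higher and 5.06% lower. At an unadjusted p under 0.05 limma gave 10 members higher and 4 lower there. The share of all genes at that threshold is not given here. By edgeR 0 members were called, and by DESeq2 10 were higher and 1 lower, beside 316 and 1947 calls over all genes. Without P-SSC 4 limma called 9 members, and without BM-MSC 1 or without BM-MSC 3 it called 0. Over all genes limma called 1584, 540 and 477 in these fits in turn, and 1046 with all libraries. Between P-SSCs and BM-MSCs edgeR called 5 members, without Wnt1, Wnt9a, Wnt10b, Rspo2, Rspo3, Lgr5 and Nkd2. It called 11 between graft BM-MSCs and P-SSCs, without Fzd1, Fzd8, Fzd9, Sfrp1 and Wnt1. The median log2 difference of the members was 0.36, 0.61 and -0.02 for graft BM-MSCs minus P-SSCs, graft BM-MSCs minus BM-MSCs, and P-SSCs minus BM-MSCs, and that of all genes tested was -0.47, -0.53 and 0.00. In all, limma called 18 members in at least 1 comparison and 31 in none, and the 3 comparisons share their groups. DESeq2 called 6 of those 31 in at least 1 comparison (Fzd2, Fzd4, Nkd1, Tcf7l1, Tcf7l2 and Wif1). With GC correction, which removes the trend with GC from each library, 29 of the 30 calls made by limma were kept, all but that of Nkd2 between P-SSCs and BM-MSCs. Of the 16 calls between graft BM-MSCs and P-SSCs, 8 were lost once GC class was a covariate. That fit called 11 members there, 4 with larger values in the graft and 7 with smaller ones. It rests on the P-SSC libraries for the effect of GC class. Members that are high in 1 group only passed the filter on low values through that group.

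**Figure D1:**
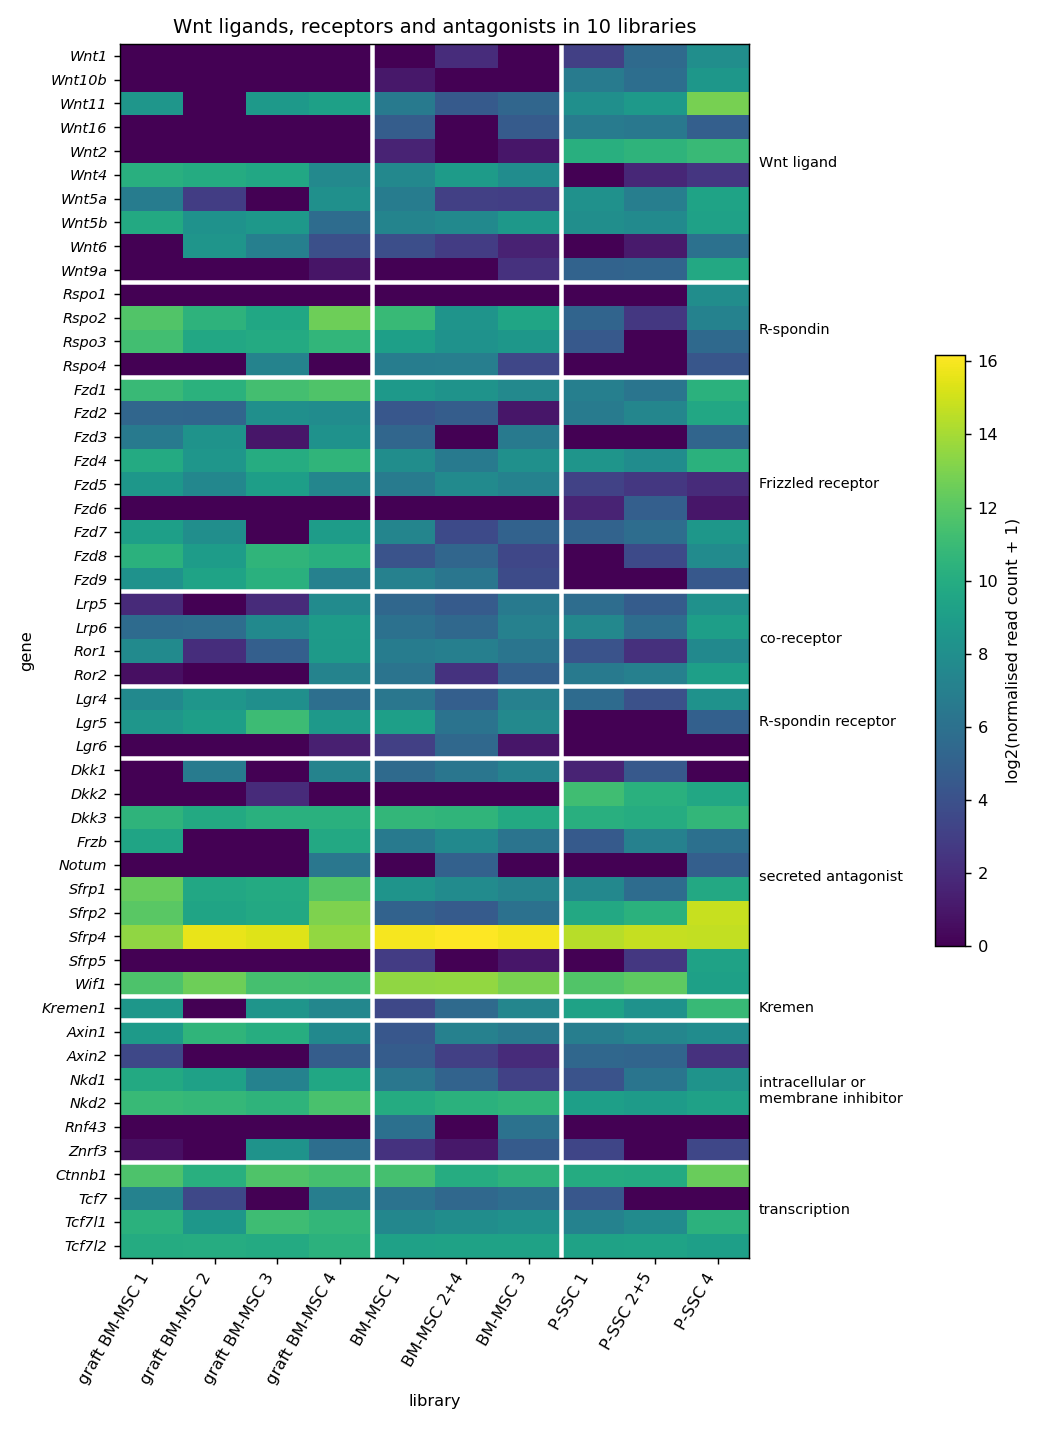
Heat map of all 51 genes (vertical axis, by role) in the 10 libraries (horizontal axis), coloured by log2(normalised read count + 1). Wnt2 and Dkk2 are bright only in the 3 P-SSC columns, and Sfrp4 is the brightest row in every library but P-SSC 4.

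**Figure D2:**
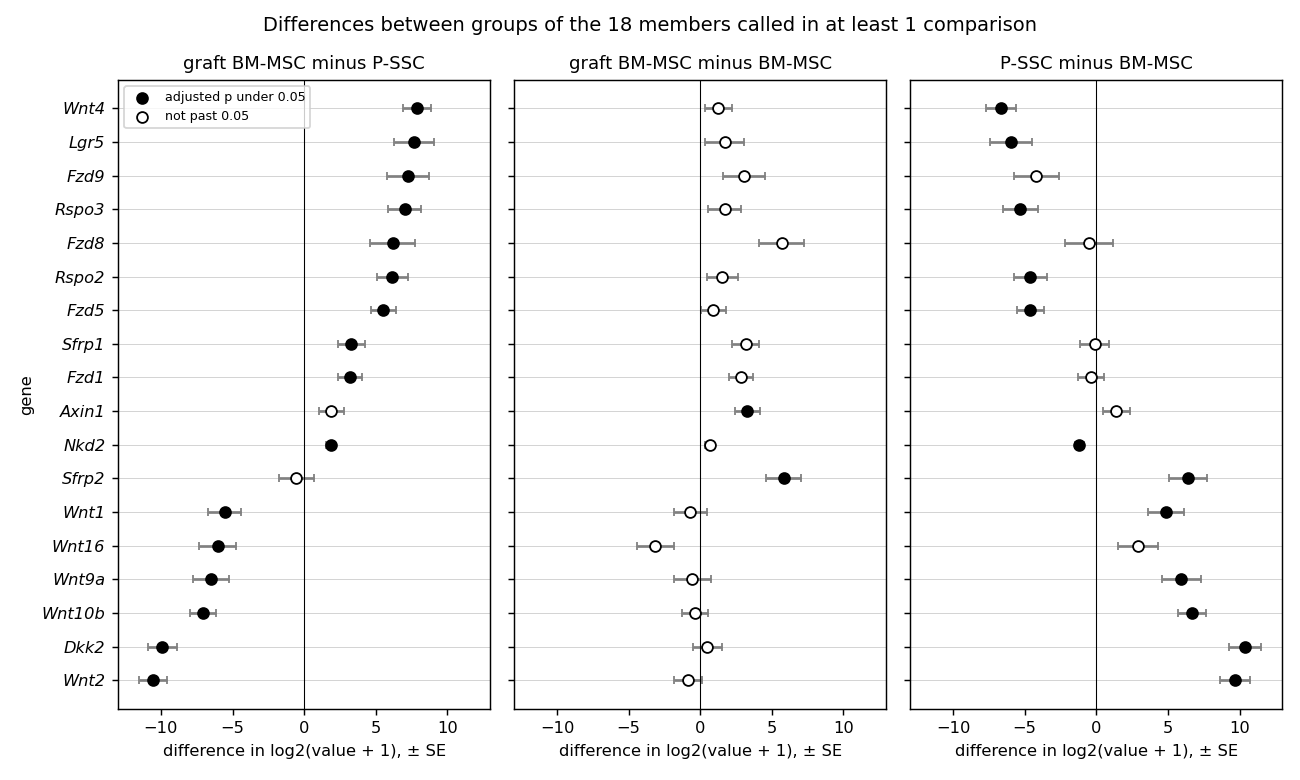
Difference in log2(value + 1) with its SE (horizontal axis) for the 18 genes called in at least 1 comparison (vertical axis), with filled points for an adjusted p under 0.05 by limma. The first and last panels mirror each other for Wnt2, Dkk2 and Wnt4, and in the middle panel only Sfrp2 and Axin1 are filled.

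Among the ligands, 5 of 10 were lower in graft BM-MSCs than in P-SSCs and 1 was higher, while 4 were higher and 1 lower in P-SSCs than in BM-MSCs and none was called between the marrow groups by limma or edgeR (DESeq2 called Wnt16, the 1 ligand with an unadjusted p under 0.05 in limma). Wnt2, a ligand of the canonical pathway, lies at chr6:17988940-18030585 (minus strand) on GRCm38. It was listed at 0 in all 4 graft libraries, at 2.09, 0 and 0.986 in BM-MSCs (3 reads in all), and at 1153, 1447 and 1958 in P-SSCs. The P-SSC libraries stood far above the other 7 and were close to each other. Wnt2 was at least 503-fold higher in P-SSCs than in graft BM-MSCs, against a floor of 3 reads per library, with a log2 difference of -10.54 ± 0.97 (SE) for graft minus P-SSC (adjusted p = 6.71e-05). Against BM-MSCs the ratio of reads was 1494 with an exact 95% interval of 511 to 7246 for counting error only, and the log2 difference was 9.66 ± 1.04 (adjusted p = 0.000227).

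Wnt10b, a ligand known to favour osteoblasts over adipocytes, was listed at 0 in the 4 graft libraries, at 1.04, 0 and 0 in BM-MSCs and at 104, 57.3 and 381 in P-SSCs. It was at least 59.8-fold higher in P-SSCs than in graft BM-MSCs (log2 difference -7.05 ± 0.91, adjusted p = 0.000436), or at least 26.7-fold without P-SSC 4, and differed from BM-MSCs by 6.71 ± 0.98 (adjusted p = 0.00121). Wnt1, whose loss in humans and mice gives fragile bone, was listed at 0 in the graft libraries, at 0, 3.16 and 0 in BM-MSCs and at 7.27, 47.1 and 254 in P-SSCs. The Wnt1 values of the P-SSC libraries spread widely but did not overlap with those of either marrow group. It was at least 34.0-fold higher in P-SSCs than in graft BM-MSCs (log2 difference -5.54 ± 1.16, adjusted p = 0.00759), a limit that was 9.0-fold without P-SSC 4. The difference from BM-MSCs was 4.86 ± 1.24 (adjusted p = 0.0338), and it was not called without BM-MSC 1 (0.124), BM-MSC 3 (0.128) or P-SSC 2+5 (0.0702), with GC class as a covariate (0.0703), with only the libraries with GC-rich genes low (0.107) or by DESeq2 (0.133). Both genes lie side by side on chromosome 15, Wnt10b at 98770712-98778150 on the minus strand and Wnt1 at 98789857-98793837 on the plus strand, with 11706 bases between them.

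Wnt9a, a ligand known from joint formation, was listed at 0, 0, 0 and 0.863 in graft BM-MSCs, at 0, 0 and 3.95 in BM-MSCs and at 34.3, 36.9 and 862 in P-SSCs. P-SSC 4, the P-SSC library with GC-rich genes high, held most of the Wnt9a signal. Wnt9a differed by -6.49 ± 1.27 between graft BM-MSCs and P-SSCs (adjusted p = 0.00522) and by 5.94 ± 1.36 between P-SSCs and BM-MSCs (adjusted p = 0.0188), the latter not called without BM-MSC 1 (0.0834) or BM-MSC 2+4 (0.0829). Wnt16, a ligand linked to cortical bone mass, was listed at 0 in the graft libraries, at 26.1, 0 and 23.7 in BM-MSCs and at 106, 87.9 and 29.1 in P-SSCs. It was at least 24.6-fold higher in P-SSCs than in graft BM-MSCs (log2 difference -6.04 ± 1.28, adjusted p = 0.00813), and this call was lost with GC class as a covariate (adjusted p = 0.173). Its difference between P-SSCs and BM-MSCs, 2.91 ± 1.37, did not pass the test (adjusted p = 0.296).

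Wnt4 was the ligand called in the other direction. It is a ligand of several tissues that can act without beta-catenin, and it lies at chr4:137277489-137299726 (plus strand). Wnt4 stood at 1182, 975, 839.9 and 193 in graft BM-MSCs, at 187, 459.8 and 234 in BM-MSCs and at 0, 2.55 and 4.85 in P-SSCs. All 7 marrow libraries lay above the 3 P-SSC libraries, and the marrow groups overlapped. The mean was 324-fold higher in graft BM-MSCs (797 ± 427, SD, n = 4) than in P-SSCs (2.46 ± 2.42, n = 3), or 216-fold without P-SSC 1 and 626-fold without P-SSC 4, with a log2 difference of 7.91 ± 0.97 (adjusted p = 0.000313), and P-SSCs differed from BM-MSCs (293 ± 146, n = 3) by -6.63 ± 1.04 (adjusted p = 0.00187). Between the marrow groups the difference was 1.27 ± 0.97 (adjusted p = 0.437).

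Transcripts of several members, Wnt1, Wnt9a, Wnt16, Fzd5 and Nkd2 among them, separated the P-SSC libraries from all marrow libraries without overlap. Wnt2, Wnt10b, Dkk2 and Wnt4 did so too, and the bases upstream of these 4, picked by hand, are shown. Each comes from the 250 bases before the start site in RefSeq on GRCm38.p6, of which the bases outside the gene in GENCODE M21 are printed, 5′ to 3′ on the gene's strand with every CG dinucleotide in capitals. They cover chr6:18030586-18030695 (minus strand) for Wnt2, chr15:98778151-98778400 (minus) for Wnt10b, chr3:132085042-132085291 (plus) for Dkk2 and chr4:137277385-137277488 (plus) for Wnt4.
Wnt2: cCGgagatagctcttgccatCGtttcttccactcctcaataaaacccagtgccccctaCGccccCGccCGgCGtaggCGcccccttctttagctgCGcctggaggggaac
Wnt10b: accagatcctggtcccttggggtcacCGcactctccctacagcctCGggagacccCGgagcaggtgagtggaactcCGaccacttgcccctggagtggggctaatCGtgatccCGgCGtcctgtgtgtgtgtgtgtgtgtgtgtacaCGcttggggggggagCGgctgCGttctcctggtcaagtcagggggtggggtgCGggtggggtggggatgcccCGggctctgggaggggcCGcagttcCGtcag
Dkk2: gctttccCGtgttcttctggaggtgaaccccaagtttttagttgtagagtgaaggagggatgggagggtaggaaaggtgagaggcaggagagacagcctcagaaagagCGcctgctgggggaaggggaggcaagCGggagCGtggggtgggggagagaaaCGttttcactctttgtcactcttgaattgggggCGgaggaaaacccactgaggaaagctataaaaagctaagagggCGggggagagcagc
Wnt4: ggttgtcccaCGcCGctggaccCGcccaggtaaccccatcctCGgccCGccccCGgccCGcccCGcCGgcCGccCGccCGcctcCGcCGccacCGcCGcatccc
Over all 250 bases the Wnt4 stretch held 44 CG dinucleotides and was 85.2% GC, against 20 and 63.6% for Wnt2, 14 and 66.8% for Wnt10b, and 7 and 55.6% for Dkk2. The median of 27025 genes was 6 CG dinucleotides and 52% GC. Of the 51 members 34 had a stretch in the table, and all were searched on both strands for CTTTGAA and CTTTGAT (Tcf and Lef factors, which share their first 6 letters), TGTGGTT (Runx) and TGTTTAC (forkhead). CTTTGAA was found in the stretch of Dkk1 and CTTTGAT in that of Wnt11, 1 of 34 members each, against 4.61% and 3.20% of all 27025 stretches. The Dkk1 site lies inside the gene as annotated in GENCODE M21. TGTGGTT and TGTTTAC, which 4.40% and 3.08% of all stretches held, were in none of the 34.

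The ligands not called in any comparison were led by Wnt11 and Wnt5b, both of the family that acts mainly without beta-catenin. Wnt11 stood at 362, 0, 436 and 591 in graft BM-MSCs, at 100.3, 23.2 and 39.5 in BM-MSCs and at 264, 425 and 7304 in P-SSCs. P-SSC 4 was the highest library for Wnt11 and graft BM-MSC 2 the only one listed at 0, so the spread within groups was wide. Wnt5b stood at 898, 299, 386 and 51.8, at 156, 205 and 401, and at 249, 211 and 617 in the same order, and the 3 groups overlapped. Wnt5a ranged from 0 to 278 in graft BM-MSCs, 6.90 to 111 in BM-MSCs and 120 to 659 in P-SSCs, and Wnt6 ranged from 0 to 345, 1.97 to 13.6 and 0 to 64.9. Adjusted p-values of these 4 ligands by limma were at least 0.22 in every comparison.

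Of 4 R-spondins, Rspo2 and Rspo3 were called, and both were higher in graft BM-MSCs and in BM-MSCs than in P-SSCs, as was the receptor Lgr5. Rspo3 stood at 2469, 842, 929 and 1569 in graft BM-MSCs, at 564, 306 and 377 in BM-MSCs and at 21.8, 0 and 45.6 in P-SSCs. Every graft library lay above every BM-MSC library and every BM-MSC library above every P-SSC library. The mean was 64.7-fold higher in graft BM-MSCs (1452 ± 751) than in P-SSCs (22.5 ± 22.8), with a log2 difference of 7.02 ± 1.14 (adjusted p = 0.00173), and 18.5-fold higher in BM-MSCs (416 ± 133) than in P-SSCs, with a log2 difference of -5.30 ± 1.22 for P-SSC minus BM-MSC (adjusted p = 0.0192). These folds were 133 and 38.1 without P-SSC 4 and 43.1 and 12.3 without P-SSC 2+5. Between graft BM-MSCs and BM-MSCs the difference of 1.71 ± 1.14 did not pass the test (adjusted p = 0.373).

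Rspo2 stood at 3588, 1381, 786 and 6301 in graft BM-MSCs, at 1893, 323 and 728 in BM-MSCs and at 35.3, 5.10 and 141 in P-SSCs. The P-SSC libraries were again the lowest, and the marrow groups overlapped. Its mean was 3014 ± 2501 in graft BM-MSCs and 60.3 ± 71.1 in P-SSCs, with a log2 difference of 6.14 ± 1.08 (adjusted p = 0.00285), and P-SSCs differed from BM-MSCs (981 ± 815) by -4.60 ± 1.16 (adjusted p = 0.0315). Rspo4 was listed at 0 in 3 graft libraries and at 149 in graft BM-MSC 3, at 113, 119 and 9.86 in BM-MSCs and at 0, 0 and 19.4 in P-SSCs, with no call. Rspo1 was listed at 0 in 9 libraries and at 242 in P-SSC 4, so that its signal rested on 1 library.

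Lgr5, the R-spondin receptor best known as a marker of intestinal stem cells, stood at 364, 535, 2198 and 402 in graft BM-MSCs, at 565, 69.6 and 195 in BM-MSCs and at 0, 0 and 30.0 in P-SSCs. It was called against P-SSCs in both marrow groups, with log2 differences of 7.68 ± 1.38 for graft BM-MSCs minus P-SSCs (adjusted p = 0.00315) and -5.98 ± 1.47 for P-SSCs minus BM-MSCs (adjusted p = 0.0283). Lgr4, a wider-spread receptor of the family, stood at 203, 355, 265 and 57.8, at 83.5, 28.5 and 138, and at 48.8, 15.3 and 299, and no comparison was called. Lgr6 was below the filter, at 1.73 or less in graft BM-MSCs and P-SSCs and at 7.31, 42.2 and 0.986 in BM-MSCs.

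With GC class as a covariate the calls of Rspo2, Rspo3 and Lgr5 between graft BM-MSCs and P-SSCs were lost (adjusted p = 0.151, 0.0946 and 0.129 by limma), while those between P-SSCs and BM-MSCs were kept (0.0147, 0.0103 and 0.00382). With only the libraries with GC-rich genes low the latter were kept for Rspo2 (0.0347) and Lgr5 (0.014) and not for Rspo3 (0.0513). The calls between P-SSCs and BM-MSCs were lost without BM-MSC 1 (0.138, 0.0835 and 0.13 for Rspo2, Rspo3 and Lgr5) or BM-MSC 3 (0.1, 0.0693 and 0.0955). They were also lost for Rspo3 without BM-MSC 2+4 (0.0575), for Rspo2 without P-SSC 1 (0.0857) or P-SSC 2+5 (0.0982), and for Lgr5 without P-SSC 1 (0.0993) or P-SSC 2+5 (0.0956).

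**Figure D3:**
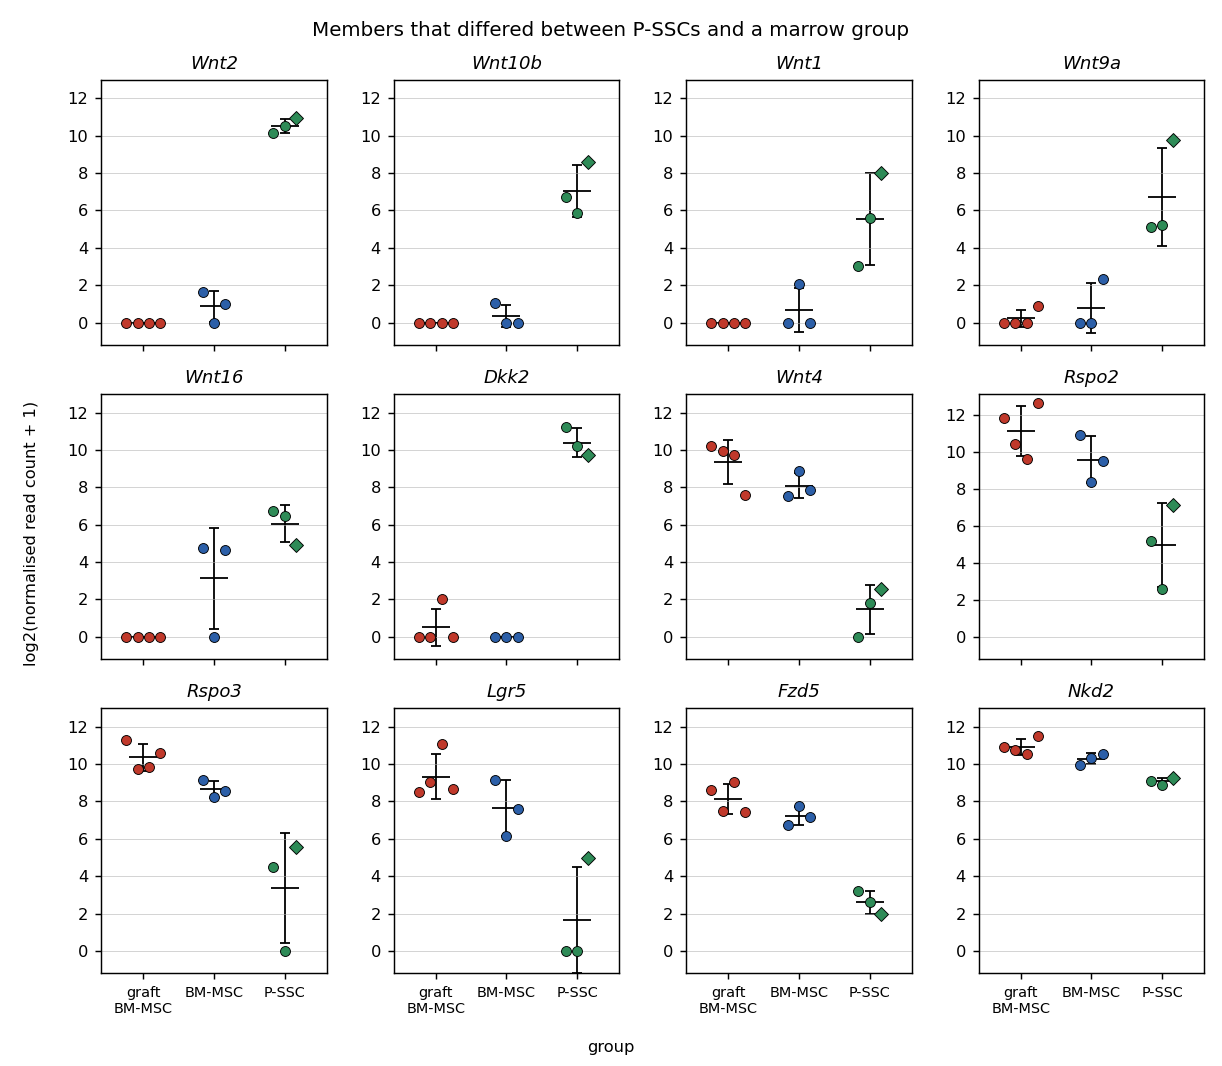
Log2(normalised read count + 1) of 12 genes (1 panel each, vertical axis) in each library of the 3 groups (horizontal axis), with the mean and SD of each group. Diamonds mark P-SSC 4. The 3 P-SSC points lie above all marrow points for Wnt2, Wnt10b, Wnt1, Wnt9a, Wnt16 and Dkk2 and below them for Wnt4, Rspo2, Rspo3, Lgr5, Fzd5 and Nkd2.

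Of 8 Frizzled receptors tested, Fzd1, Fzd5, Fzd8 and Fzd9 were higher in graft BM-MSCs than in P-SSCs, and Fzd5 was lower in P-SSCs than in BM-MSCs. Between graft BM-MSCs and BM-MSCs limma and edgeR called none. There 4 had an unadjusted p under 0.05 in limma, and the share of all genes at that threshold is not given here. DESeq2 called 4, beside 1947 calls over all genes, in a comparison where group and GC class cannot be told apart. Fzd5 stood at 384, 177, 525 and 170.0 in graft BM-MSCs, at 107, 212 and 142 in BM-MSCs and at 8.31, 5.10 and 2.91 in P-SSCs. All marrow libraries lay above all P-SSC libraries, P-SSC 4 included. The mean was 57.7-fold higher in graft BM-MSCs (314 ± 172) than in P-SSCs (5.44 ± 2.72), with a log2 difference of 5.53 ± 0.87 (adjusted p = 0.00144). P-SSCs differed from BM-MSCs (154 ± 53.7) by -4.62 ± 0.93 (adjusted p = 0.00927), and this was not called without BM-MSC 2+4 (adjusted p = 0.0534).

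The calls of the other 3 Frizzled receptors were lost with GC class as a covariate and kept with GC correction. Fzd8 stood at 1289, 489.9, 1505 and 1151 in graft BM-MSCs, at 16.7, 40.1 and 9.86 in BM-MSCs and at 0, 11.5 and 222 in P-SSCs. Fzd1 stood at 1981, 1282, 2619 and 3366, at 427, 322 and 197, and at 128, 77.7 and 1279. Fzd9 stood at 297, 679, 1212 and 136, at 135, 79.1 and 11.8, and at 0, 0 and 21.3. In all 3 genes the graft libraries were the highest and P-SSC 4 was the highest P-SSC library, and the Fzd1 value of P-SSC 4 lay just under the lowest graft library. Graft BM-MSCs minus P-SSCs gave 6.19 ± 1.55 for Fzd8 (adjusted p = 0.0197), 3.21 ± 0.83 for Fzd1 (0.0228) and 7.25 ± 1.48 for Fzd9 (0.00652). With GC class as a covariate the adjusted p was 0.532, 0.61 and 0.232, and with GC correction the 3 were kept at 0.0065, 0.00216 and 0.00324, with larger differences (7.10, 4.20 and 7.32). Fzd8 was also not called without P-SSC 1 (0.0536) or P-SSC 2+5 (0.0657), nor Fzd1 without graft BM-MSC 3 (0.0526), graft BM-MSC 4 (0.0571), P-SSC 1 (0.106) or P-SSC 2+5 (0.0982). Against BM-MSCs the graft difference was 5.68 ± 1.55 for Fzd8 (adjusted p = 0.0524), 2.85 ± 0.83 for Fzd1 (0.0665) and 3.04 ± 1.48 for Fzd9 (0.227), and none passed the test. Values of these groups did not overlap, but for Fzd9 they nearly met (136 in graft BM-MSC 4 and 135 in BM-MSC 1). The share of all genes without overlap is not given here.

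Fzd4, a receptor known from blood vessels of the eye, stood at 938, 358, 1050.4 and 1515 in graft BM-MSCs, at 242, 98.1 and 282 in BM-MSCs and at 344, 236 and 1269.8 in P-SSCs. Fzd7 stood at 549.7, 249, 0 and 484, at 161, 11.6 and 32.5, and at 34.3, 53.5 and 377. Neither was called in any comparison by limma or edgeR (DESeq2 called Fzd4 as higher in graft BM-MSCs than in BM-MSCs), and P-SSC 4 was again the highest P-SSC library. Fzd2 ranged from 37.1 to 262 in graft BM-MSCs, 0.986 to 26.4 in BM-MSCs and 104 to 842 in P-SSCs (adjusted p = 0.0795 by limma for P-SSCs against BM-MSCs). Fzd3 ranged from 0 to 317 over all libraries, and Fzd6, which was not tested, was at 0 in the 7 marrow libraries and at 2.08, 29.3 and 0.969 in P-SSCs.

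None of the 4 co-receptors was called by limma, edgeR or DESeq2, and 1 (Ror2, lower in graft BM-MSCs than in P-SSCs) had an unadjusted p under 0.05 in limma. Lrp6, which relays canonical signals with Lrp5, stood at 50.3, 54.0, 199 and 474 in graft BM-MSCs, at 63.7, 43.2 and 137 in BM-MSCs and at 187, 53.5 and 533 in P-SSCs. Ror1, a receptor for Wnt5a, stood at 211, 3.37, 29.2 and 443, at 109.7, 125 and 76.9, and at 16.6, 3.82 and 205. The groups overlapped for both genes. Lrp5 ranged from 0 to 295 and Ror2 from 0 to 555 over the 10 libraries, and Ror2 came nearest to a call, with -5.64 ± 1.91 for graft BM-MSCs minus P-SSCs (adjusted p = 0.0666 by limma).

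Of 10 secreted antagonists, Dkk2 and Sfrp2 were higher in P-SSCs than in BM-MSCs, Sfrp2 was higher in graft BM-MSCs than in BM-MSCs, and Sfrp1 was higher and Dkk2 lower in graft BM-MSCs than in P-SSCs. Dkk2, which binds Lrp5 and Lrp6, lies at chr3:132085292-132180304 (plus strand). It was listed at 0, 0, 3.02 and 0 in graft BM-MSCs (3 reads in all), at 0 in all 3 BM-MSC libraries, and at 2420.2, 1206 and 838 in P-SSCs. As with Wnt2, the P-SSC libraries stood far above all others, and here P-SSC 4 was the lowest of the 3. Dkk2 was at least 470-fold higher in P-SSCs than in BM-MSCs, against a floor of 3 reads per library, with a log2 difference of 10.40 ± 1.11 (adjusted p = 0.000217). Against graft BM-MSCs the ratio of reads was 2537 with an exact 95% interval of 868 to 12308 for counting error only, and the log2 difference was -9.90 ± 1.03 (adjusted p = 0.00013).

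Sfrp2, a secreted frizzled-related protein of fibroblasts, stood at 4170.4, 681, 880.2 and 8588 in graft BM-MSCs, at 32.4, 24.3 and 63.1 in BM-MSCs and at 871, 1267 and 28698 in P-SSCs. All graft and P-SSC libraries lay above the 3 BM-MSC libraries, and graft and P-SSC values overlapped. Here the graft libraries thus lay at the level of the periosteal cells and not at that of the marrow cells. The log2 difference was 5.83 ± 1.23 for graft BM-MSCs minus BM-MSCs (adjusted p = 0.0195), 6.39 ± 1.31 for P-SSCs minus BM-MSCs (adjusted p = 0.0101) and -0.56 ± 1.23 for graft BM-MSCs minus P-SSCs (adjusted p = 0.782). P-SSC 1 and P-SSC 2+5, which have GC-rich genes low as the BM-MSC libraries do, gave the second difference on their own (adjusted p = 0.00793 by limma). The difference between graft BM-MSCs and BM-MSCs was not called with GC class as a covariate (adjusted p = 0.906) or without BM-MSC 1 (0.07), BM-MSC 2+4 (0.0847) or BM-MSC 3 (0.0556).

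Sfrp1 stood at 5544, 824, 961 and 3741 in graft BM-MSCs, at 329, 223 and 152 in BM-MSCs and at 189, 52.2 and 863 in P-SSCs. Graft and P-SSC values overlapped at 1 library, since P-SSC 4 lay above graft BM-MSC 2. The log2 difference of graft BM-MSCs minus P-SSCs was 3.29 ± 0.95 (adjusted p = 0.0365), and it was not called with GC class as a covariate (0.654) or without any of 7 libraries (graft BM-MSC 1 and 4, the 3 BM-MSCs, P-SSC 1 and P-SSC 2+5, with adjusted p of 0.056 to 0.148). Against BM-MSCs it was 3.17 ± 0.95 (adjusted p = 0.0726).

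Sfrp4 and Wif1, the antagonists with the highest means over all 10 libraries among those without a call by limma, were not called by edgeR either, and DESeq2 called Wif1 as lower in P-SSCs than in BM-MSCs. Sfrp4, whose loss thins cortical bone, stood at 11689, 49832, 42533 and 11880.4 in graft BM-MSCs, at 64489, 73701 and 59219 in BM-MSCs and at 22545, 27079 and 26741 in P-SSCs. Wif1, which binds Wnt ligands directly, stood at 3263, 6148, 2757 and 2529, at 11625, 12218 and 7784, and at 3544, 4599 and 576. For both genes the 3 BM-MSC libraries were the highest of all 10, without overlap. The log2 difference of P-SSCs minus BM-MSCs was -1.37 ± 0.52 for Sfrp4 (adjusted p = 0.16) and -2.29 ± 0.67 for Wif1 (adjusted p = 0.062), and that of graft BM-MSCs minus BM-MSCs was -1.49 ± 0.49 (0.0935) and -1.59 ± 0.63 (0.147). BM-MSC libraries also had the highest osteoblast and chondrocyte marker sums, and the part of these was not tested. Dkk3 was even, at 898 to 1701 over all libraries, while Dkk1 ranged from 0 to 152, Frzb from 0 to 852 and Notum from 0 to 85.4. Sfrp5 was at 6.27 or less apart from 635 in P-SSC 4. Kremen1, which binds Dkk proteins, stood at 375, 0, 350.5 and 179 in graft BM-MSCs, at 10.4, 47.5 and 169.6 in BM-MSCs and at 642, 298 and 1877 in P-SSCs, with no call (adjusted p of at least 0.265).

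**Figure D4:**
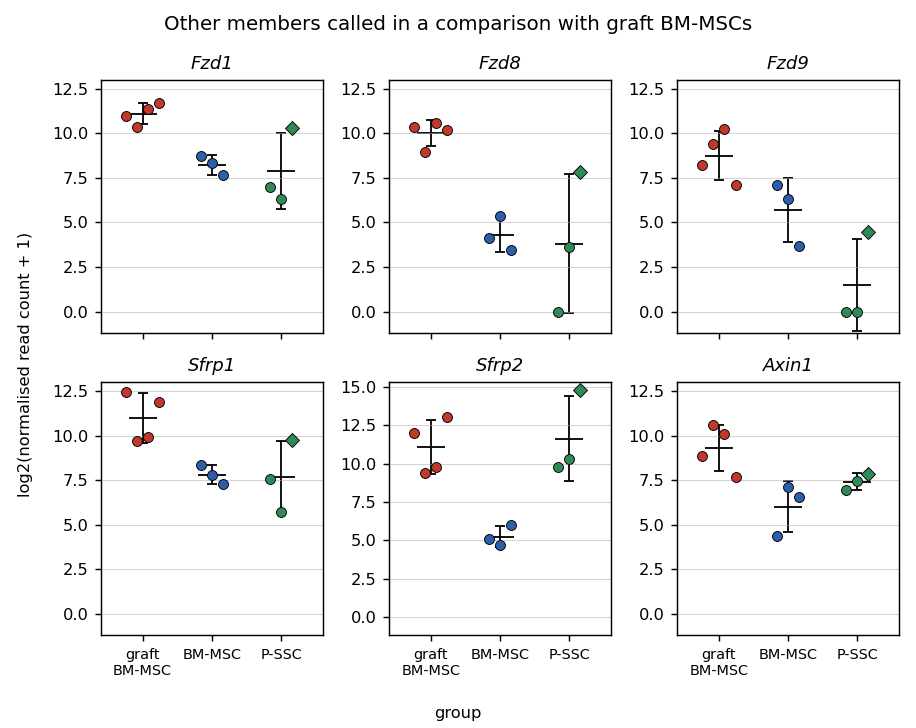
Log2(normalised read count + 1) of 6 genes (1 panel each, vertical axis) in each library of the 3 groups (horizontal axis), with the mean and SD of each group. Diamonds mark P-SSC 4, which is the highest P-SSC point in all 6 panels. The Sfrp2 panel shows graft and P-SSC points above the 3 BM-MSC points.

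Among the intracellular and membrane inhibitors, Nkd2 was called against P-SSCs in both marrow groups and Axin1 was higher in graft BM-MSCs than in BM-MSCs. Nkd2, which binds Dishevelled, stood at 1932, 1739, 1479 and 2908 in graft BM-MSCs, at 1002, 1274 and 1500.1 in BM-MSCs and at 551, 473 and 613 in P-SSCs. Its standard error was the smallest of the called members, and no marrow library overlapped with a P-SSC library. The log2 difference was 1.84 ± 0.30 for graft BM-MSCs minus P-SSCs (adjusted p = 0.00186) and -1.19 ± 0.32 for P-SSCs minus BM-MSCs (adjusted p = 0.0451). The latter was lost without any of 6 libraries (graft BM-MSC 1, the 3 BM-MSCs, P-SSC 1 and P-SSC 2+5, with adjusted p of 0.0603 to 0.172), with GC class as a covariate (0.0513) and with GC correction (0.0729).

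Axin1, a scaffold of the complex that degrades beta-catenin, stood at 456, 1538, 1096 and 206 in graft BM-MSCs, at 19.8, 136 and 93.7 in BM-MSCs and at 122, 173 and 233 in P-SSCs. All graft libraries lay above all BM-MSC libraries, and graft BM-MSC 4 lay within the range of P-SSCs. The log2 difference of graft BM-MSCs minus BM-MSCs was 3.29 ± 0.87 (adjusted p = 0.0462). It was near the threshold and was lost with GC class as a covariate (0.807) and without any of 8 libraries, all but graft BM-MSC 4 and P-SSC 4 (adjusted p of 0.0633 to 0.154). Nkd1 stood at 915, 615, 146 and 809, at 83.5, 34.8 and 7.89, and at 16.6, 77.7 and 318, and its difference between graft BM-MSCs and BM-MSCs, 4.09 ± 1.19, missed the threshold (adjusted p = 0.0657).

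Znrf3, the ligase that R-spondins remove, stood at 0.565, 0, 314 and 56.1 in graft BM-MSCs, at 4.18, 1.05 and 23.7 in BM-MSCs and at 9.35, 0 and 9.69 in P-SSCs, with no call. Its partner Rnf43 was listed at 0 in 8 libraries and at 61.6 and 68.1 in BM-MSC 1 and BM-MSC 3. Axin2, a widely used readout of beta-catenin signalling, was low everywhere, at 10.2, 0, 0 and 26.8 in graft BM-MSCs, at 25.1, 7.38 and 2.96 in BM-MSCs and at 41.5, 38.2 and 3.88 in P-SSCs, and was given in every library after its values were seen. Its groups overlapped, with adjusted p-values by limma of at least 0.339.

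The 4 genes of the transcriptional complex were not called in any comparison by limma or edgeR. DESeq2 called Tcf7l1 and Tcf7l2 as higher in graft BM-MSCs than in BM-MSCs and Tcf7l2 as higher than in P-SSCs, and these were also the ones with an unadjusted p under 0.05 in limma. Ctnnb1 stood at 3152, 1182, 3368 and 2718 in graft BM-MSCs, at 2686, 1048 and 1403 in BM-MSCs and at 989, 938 and 5787 in P-SSCs, and the groups overlapped. Tcf7l1, mostly a repressor of target genes, stood at 1306, 374, 2269.9 and 1695, at 182, 237 and 291, and at 141, 219 and 1347. Its 5 highest libraries were the 4 of the graft and P-SSC 4, those with GC-rich genes high, and its difference between graft BM-MSCs and BM-MSCs was 2.33 ± 0.81 (adjusted p = 0.111 by limma). Tcf7l2 ranged from 935 to 1319 in graft BM-MSCs, 596 to 636 in BM-MSCs and 547 to 656 in P-SSCs, and the 0.78 ± 0.28 between graft BM-MSCs and P-SSCs missed the threshold (adjusted p = 0.0778). Tcf7 ranged from 0 to 143 over all libraries.

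Levels of different genes can be compared roughly once divided by exon length, and on that scale (value per kb of exon) the antagonists stood above the ligands. The length is that of all annotated exons of a gene, and no allowance was made for GC, so the order of genes with close values is uncertain. Secreted antagonists summed to 8004 to 23303 per kb over the 10 libraries, of which Sfrp4 made up 73.9% to 79.7% in BM-MSCs, 34.95%, 78.1%, 82.7% and 30.1% in graft BM-MSCs and 64.8%, 67.1% and 30.1% in P-SSCs. Sfrp2 was the leading antagonist in graft BM-MSC 4 and P-SSC 4. Wnt ligands summed to 251 to 722 per kb in graft BM-MSCs, 155 to 225 in BM-MSCs and 774, 909 and 3466 in P-SSCs. The leading ligand by group mean was Wnt2 in P-SSCs (674 per kb), followed by Wnt11 (644), whose mean rests on P-SSC 4. It was Wnt4 in graft BM-MSCs (190 per kb, followed by Wnt5b at 154) and Wnt5b in BM-MSCs (95.7 per kb, followed by Wnt4 at 70.0), and in both the values of this pair overlapped between libraries. R-spondins summed to 517 to 1740.5 per kb in graft BM-MSCs, 212 to 600.5 in BM-MSCs and 0.997 to 175 in P-SSCs. Frizzled receptors summed to 852 to 1708 per kb in graft BM-MSCs, 132 to 259 in BM-MSCs, 119 and 121 in P-SSC 1 and P-SSC 2+5, and 857 in P-SSC 4. Fzd1 led in all 7 marrow libraries and in P-SSC 4, whereas Fzd4 led in P-SSC 1 (51.2 per kb, Fzd1 at 30.4) and Fzd2 in P-SSC 2+5 (46.9 per kb).

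**Figure D5:**
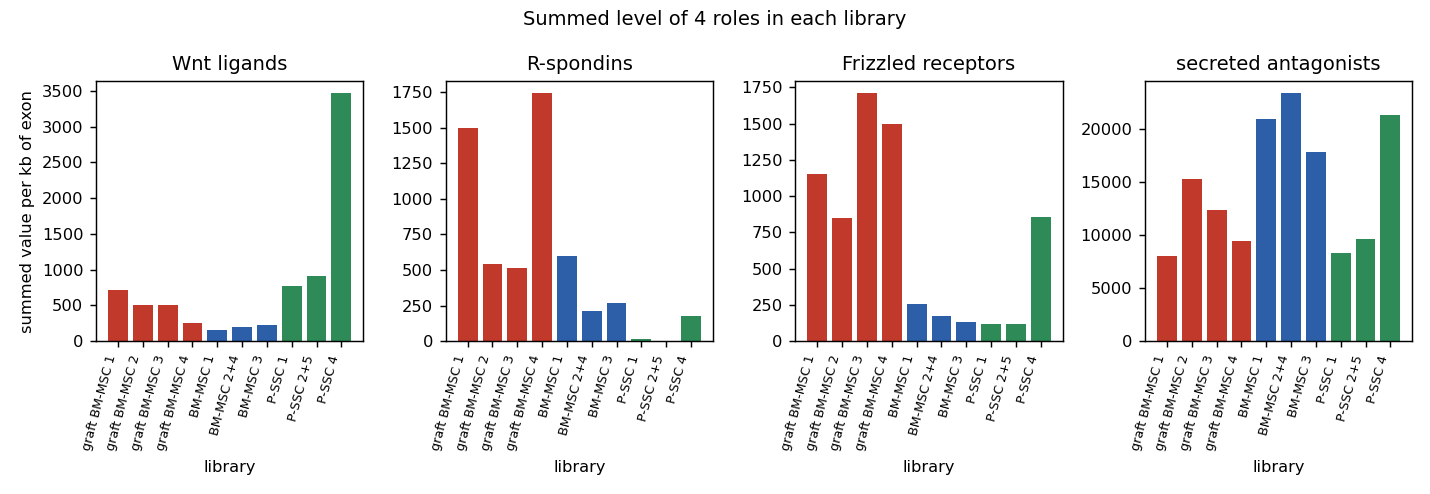
Summed value per kb of exon (vertical axis, 1 scale per panel, from 0) of 4 roles in each library (horizontal axis), coloured by group. P-SSC 4 is the highest bar for Wnt ligands and stands above the other P-SSC bars in all 4 panels, and the R-spondin bars of P-SSC 1 and P-SSC 2+5 are close to 0.

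Other genes of the pathway outside the set were examined in a list of 65, of which 61 were tested. In it 9 genes (14.8%) were called higher and 6 (9.84%) lower in graft BM-MSCs than in P-SSCs, beside 6.08% and 12.0% of all genes. The counts came to 6 (9.84%) higher and 2 (3.28%) lower in graft BM-MSCs than in BM-MSCs, beside 2.61% and 5.06%, and 2 (3.28%) higher and 3 (4.92%) lower in P-SSCs than in BM-MSCs, which is near the 4.57% and 4.58% of all genes. The 9 higher were 17 without P-SSC 4 and 6 with edgeR. The 6 and 2 between the marrow groups were 1 and 1 with edgeR or without BM-MSC 2+4, 3 and 1 without BM-MSC 1, 2 and 1 without BM-MSC 3, 12 and 1 without P-SSC 4 and 11 and 2 with DESeq2. The largest differences between graft BM-MSCs and P-SSCs were -11.71 ± 1.56 for Gpc3, a cell-surface glypican, -7.33 ± 1.63 for Dact2, -7.12 ± 1.07 for Prickle2, a planar polarity gene, and 5.09 ± 0.96 for the corepressor Tle2 (adjusted p = 0.000509, 0.0105, 0.00106 and 0.00434 by limma). Prickle2 was listed at 0 in all 4 graft libraries, at 71.0 to 124 in BM-MSCs and at 54.8 to 323 in P-SSCs. Between graft BM-MSCs and BM-MSCs the largest were -6.67 ± 1.07 for Prickle2, -6.21 ± 1.56 for Gpc3, 5.16 ± 0.95 for Rac1 and 3.07 ± 0.68 for the kinase Csnk1a1 (adjusted p = 0.00584, 0.0391, 0.011 and 0.0244). Porcn, the enzyme that adds the lipid to Wnt ligands, was lower in P-SSCs (152 to 320) than in BM-MSCs (2136 to 2650) and graft BM-MSCs (1089 to 1461), with -3.28 ± 0.35 for P-SSCs minus BM-MSCs (adjusted p = 0.000204). In that comparison Dact2 (9.34 ± 1.74), Tle2 (-4.71 ± 1.03), the co-receptor Ptk7 (-3.18 ± 0.62) and Rhoa (0.73 ± 0.16) were also called. With GC class as a covariate none of the list was called between graft BM-MSCs and BM-MSCs.

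Of 41 genes reported as beta-catenin targets in various tissues, 36 were tested, and the list includes members described above such as Lgr5 and Sfrp2. The counts came to 6 higher (16.7%) and 3 lower (8.33%) in graft BM-MSCs than in P-SSCs, beside 6.08% and 12.0% of all genes. In graft BM-MSCs against BM-MSCs 3 were higher and 3 lower (8.33% each), beside 2.61% and 5.06%. In P-SSCs against BM-MSCs 4 were higher (11.1%) and 5 lower (13.9%), beside 4.57% and 4.58%. The 3 and 3 were 0 and 0 without BM-MSC 1, 0 and 2 without BM-MSC 2+4, 0 and 1 without BM-MSC 3 or with edgeR, 6 and 4 without P-SSC 4 and 10 and 4 with DESeq2. The list's median log2 difference was -0.01, 0.79 and 0.44 in these comparisons, and that of all genes tested was -0.47, -0.53 and 0.00. Besides Lgr5, the largest differences between graft BM-MSCs and P-SSCs were 7.21 ± 1.56 for the transcription factor Irx3, 5.38 ± 0.47 for the osteoblast regulator Runx2 and -5.12 ± 1.14 for the receptor Ephb2 (adjusted p = 0.00897, 4.65e-05 and 0.0106 by limma). Runx2 ranged from 823 to 1868 in graft BM-MSCs, 420 to 697 in BM-MSCs and 26.2 to 31.2 in P-SSCs. Between P-SSCs and BM-MSCs Lgr5 and Sfrp2 were followed by Ephb2 (5.94 ± 1.22, adjusted p = 0.0101) and Ccn5 (-4.18 ± 0.47, adjusted p = 0.000273). Between graft BM-MSCs and BM-MSCs they were Irx3 (5.91 ± 1.56, adjusted p = 0.0456), Sfrp2, Jun (4.46 ± 0.99, adjusted p = 0.0242) and Ppard (-4.45 ± 1.09, adjusted p = 0.0357), and with GC class as a covariate none of this list was called there.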

How the data were processed

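The authors mapped reads with STAR to GRCm38 by the study's methods, whereas the submitters' processing notes name GRCm39, FastQC 0.11.5, cutadapt 1.15, STAR 2.5, featureCounts, Subread 1.4.6 and DESeq2 1.26.0. The file holds no coordinates. Strandedness is not given in the sources used here. The deposited values are a signal, the read count of a gene over that library's size factor. Dividing by the value of 1 read gave whole reads for 100% of values within 0.01.

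Genes with a mean of at least 10 (13644 of 15078) were tested as log2(value + 1), so folds of low genes are understated. limma 3.58.1 (R 4.3.3, empirical Bayes with a trend) was fitted to all 10 libraries with 1 mean per group (7 residual degrees of freedom), two-sided, with Benjamini-Hochberg adjustment over all genes tested. Every adjusted p given here is from this fit unless another tool or setting is named. The members and lists were chosen with earlier results of these data known. Every library's value is given for each member called and for the 2 highest others of each role, and up to 4 called genes with the largest difference are named per list and comparison. Members include paralogs, which may share reads. Gene positions and exon lengths came from GENCODE M21 on GRCm38, and upstream sequences from RefSeq (GRCm38.p6). GC class (GC-rich genes high or low) was read from the libraries, and alternatives included edgeR 4.0.16 and DESeq2 1.42.0 on the recovered reads. The fits by limma, edgeR and DESeq2 were also run on simulated counts. Floors and read ratios cover counting error only.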

Additional observations from a re-analysis of the deposited data

Results flagged for a closer look

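Among the 4 graft libraries, 1 library stood apart from the other 3 on the log2(value + 1) scale for 8 of the 42 members with any spread there, by the share of the group's range taken by its gap to the nearest library. For 4 normally distributed values a flag of this kind is given to about 1 in 20 groups by chance. For Wnt9a, Dkk2, Rspo4 and Notum the other 3 graft libraries were listed at 0, so the share was 1 whatever the remaining value. The count of flags can thus not be set against that rate. Graft BM-MSC 4 was the highest for Wnt9a (share 1, at 0.863), Ror2 (0.911, at 148) and Notum (1, at 85.4). Graft BM-MSC 3 was the highest for Dkk2 (1, at 3.02) and Rspo4 (1, at 149) and the lowest for Fzd7 (0.875, at 0). Graft BM-MSC 2 was the lowest for Wnt11 (0.923, at 0) and Kremen1 (0.876, at 0). The values of Wnt9a and Dkk2 correspond to 1 read and 3 reads.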

How the results depend on the processing

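The 30 calls of a member in a comparison were recomputed under up to 23 alternatives. No direction was reversed, 540 of 663 values stayed past the threshold and 123 did not, and 11 of the calls were kept under every alternative apart from the replicate block. DESeq2 gave no adjusted p for Wnt9a. The count of members called between graft BM-MSCs and P-SSCs (16) was 13 to 17 without each library in turn, 11 with GC class as a covariate and 19 with GC correction. Between graft BM-MSCs and BM-MSCs (2) it was 1 with a pseudocount of 0.1, 1 with a mean of at least 100, 4 with quantile normalization, 0 with edgeR, 11 with DESeq2, 6 with only both groups compared, 1 with GC class as a covariate, 10 with GC correction and 0 to 9 without each library (9 without P-SSC 4). Between P-SSCs and BM-MSCs (12) it was 5 with edgeR, 6 to 14 without each library (6 without BM-MSC 1 and 7 without BM-MSC 3), and 13 with only the libraries with GC-rich genes low, an alternative added after the data were seen. The causes were not tested, and the covariate rests on 1 P-SSC library. With a replicate block these counts of members were 3, 0 and 0, on 2 residual degrees of freedom, with each pool as a number of its own. Libraries that share a number, pools included, had correlations of their deviations of -0.0670 to 0.0811 (the highest for BM-MSC 2+4 and P-SSC 2+5). With so few libraries per group these values cannot decide whether mice were shared. The numbers were not taken as pairs in the main fit. Over all genes the counts were 2464, 1046 and 1248, against 269, 3 and 54 with the block and 1531, 316 and 619 with edgeR on the recovered reads. Between graft BM-MSCs and BM-MSCs the count over all genes was 1947 with DESeq2, 1229 with GC correction and 40 with GC class as a covariate. It was 1584 without P-SSC 4. Between P-SSCs and BM-MSCs it was 983 without BM-MSC 1, 917 without BM-MSC 3 and 2040 with only the libraries with GC-rich genes low. The calls of Wnt2, Rspo2 and Rspo3 between graft BM-MSCs and P-SSCs were kept with the block. A value of 0 allows up to 3 reads.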
